A study of Drosophila melanogaster with 2 samples.

Results

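Of the 9247 Rfx-eGFP peak summits on the Drosophila melanogaster chromosome arms, 490 lay between genes but close to the start of one. These near-gene intergenic peaks were chosen by position alone: the summit lay outside every annotated gene body, transposable elements not counted as genes, and more than 500 and up to 2000 bp from the nearest transcription start site (TSS). They made up 5.30% of the summits (Wilson 95% interval 4.86 to 5.77). In the peak sets called from each replicate alone the share was 5.44% (342 of 6290) in replicate 1 and 4.98% (346 of 6953) in replicate 2, with a mean of 5.21% ± 0.326 (SD, n = 2). For comparison, the other classes were 4663 promoter summits within 500 bp of a TSS, 1305 near intronic summits at the same distances from a TSS but inside a gene, 617 distal intergenic summits farther than 2000 bp from any TSS, 1775 deep intronic summits and 397 exonic summits.

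Rfx belongs to a family of winged-helix transcription factors that recognise a palindromic DNA site, the X-box, and are known for switching on genes of the cilium. In the fly, cilia are found on sensory neurons and in the male germ line, so that only a small share of embryonic cells is ciliated. DNA upstream of a fly gene commonly holds its enhancers, which bind tissue-specific factors, while insulator proteins such as CTCF bind between genes and separate their regulatory neighbourhoods. The chromatin came from whole embryos of 0 to 24 h from 1 transgenic strain, labelled Rfx-GFP, that expresses Rfx fused to eGFP; no untagged strain was analysed beside it. It was sonicated to 200 to 800 bp and pulled down through the GFP tag with an anti-GFP antibody, although another label names the antibody Rfx. Both biological replicates belong to the same group, so the series contrasts no conditions, and whole embryos mix all cell types, so a peak in few cells and a weak peak in many cannot be told apart. The deposited lists hold no read counts, so that the depth of each replicate is unknown.

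No motif of the 12 searched below was common to all of the strongest near-gene intergenic peaks. The bases from 50 before to 50 after the summit are shown for 6 of the strongest, from the plus strand of the RefSeq copy of the dm6 genome, because these are the positions where Rfx-eGFP signal was highest in the class. Capitals mark a match to 1 arm of the X-box (GGCAAC) in the third and to the CTCF core (AGNNGGCGC, here on the minus strand) in the last; a strict X-box was in none of these 6 summit windows, 100 bp to either side.
sp3, chr3R:21520311-21520411: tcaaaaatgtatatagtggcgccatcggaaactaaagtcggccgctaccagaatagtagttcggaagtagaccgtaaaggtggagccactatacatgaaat
CG17896, chrX:493948-494048: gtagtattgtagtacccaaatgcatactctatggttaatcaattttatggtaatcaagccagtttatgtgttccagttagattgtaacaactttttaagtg
lncRNA:CR45643, chr3R:16222439-16222539: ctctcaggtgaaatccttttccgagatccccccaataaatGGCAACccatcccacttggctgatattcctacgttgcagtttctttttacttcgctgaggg
stck, chr3R:8355681-8355781: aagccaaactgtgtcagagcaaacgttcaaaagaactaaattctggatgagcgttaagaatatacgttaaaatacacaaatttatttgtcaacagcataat
Cpr76Ba, chr3L:19516674-19516774: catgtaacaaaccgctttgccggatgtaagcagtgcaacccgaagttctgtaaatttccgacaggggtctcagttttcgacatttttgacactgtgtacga
jp, chr2L:9567461-9567561: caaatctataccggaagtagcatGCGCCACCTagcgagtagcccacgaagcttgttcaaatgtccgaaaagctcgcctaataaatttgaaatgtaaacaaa

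The signal, the authors' enrichment value for each peak, reached 1897 in the strongest of the 490 peaks, and the values below are on that scale. This peak (chr3R:21520215-21520523) lay 567 bp upstream of sp3, in the intergenic stretch between C15 and sp3. In the replicates' own ranked lists its signal was 1103 and 810, which put it at the 99.4 and 99.5 percentile of all main-set peaks found there. The second, with 1852, lay 503 bp upstream of CG17896, and its signal was 1117 in replicate 1 and 739 in replicate 2. The third, with 1843, lay 906 bp upstream of lncRNA:CR45643 and had signals of 1072 and 752. A peak of 1254 lay 1247 bp upstream of stck, whose product is a LIM-domain adaptor of integrin adhesions, with 707 and 541 in the replicates. All 4 were above the 98 percentile in both replicates, although signals of different lists share no scale and were compared by rank only.

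The other 8 of the 12 strongest peaks had signals from 714 to 981. They lay near CG14762, the cuticle protein gene Cpr76Ba, jp (the fly junctophilin, which ties membranes of muscle and neurons together), DNAlig3 (a DNA ligase gene), lncRNA:CR45687, lncRNA:CR42794, lncRNA:CR43437 and chinmo, a BTB zinc-finger factor of neuronal temporal identity. Of these, Cpr76Ba and lncRNA:CR45687 had the peak downstream of their TSS, at 1608 and 1324 bp, past the end of the gene. The chinmo peak lay 1533 bp upstream and had a signal of 496 in replicate 1 and 238 in replicate 2. The jp peak stood at the 94.4 percentile of replicate 1 and the 98.9 percentile of replicate 2, a mean of 96.7 ± 3.17 (SD, n = 2). All 12 were present in the conservative set and in both replicates' own sets.

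Rfx-eGFP summits were denser in intergenic DNA near a gene start than far from one. The 7.57 Mb of intergenic DNA that met the rule held 64.7 summits per Mb (exact Poisson interval 59.1 to 70.7), against 19.7 per Mb (18.1 to 21.3) in the 31.4 Mb of distal intergenic DNA and 67.2 per Mb over all arms. Repeats and unsequenced bases were not masked, so the distal DNA includes stretches where a peak may not be callable. How far this lowers the distal density was not tested, and the bins up to 5000 bp below are the closer comparison. In the first 250 bp of the range, up to 750 bp, the density was 99.1 per Mb (148 summits, 83.7 to 116), and up to 1000 bp it was 71.9 (100 summits, 58.5 to 87.5). The 3 bins between 1000 and 1750 bp had densities of 57.8, 54.2 and 53.8, with overlapping intervals. In the last bin, from 1751 to 2000 bp, the density was 39.1 (28.2 to 52.8), inside the range of 24.6 to 45.0 seen in the 12 bins between 2000 and 5000 bp. Position was used to choose the peaks, so these densities are a description. The intervals here and below cover counting error only, and peaks of 1 pair of libraries are not independent replicates.

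**Figure D1:**
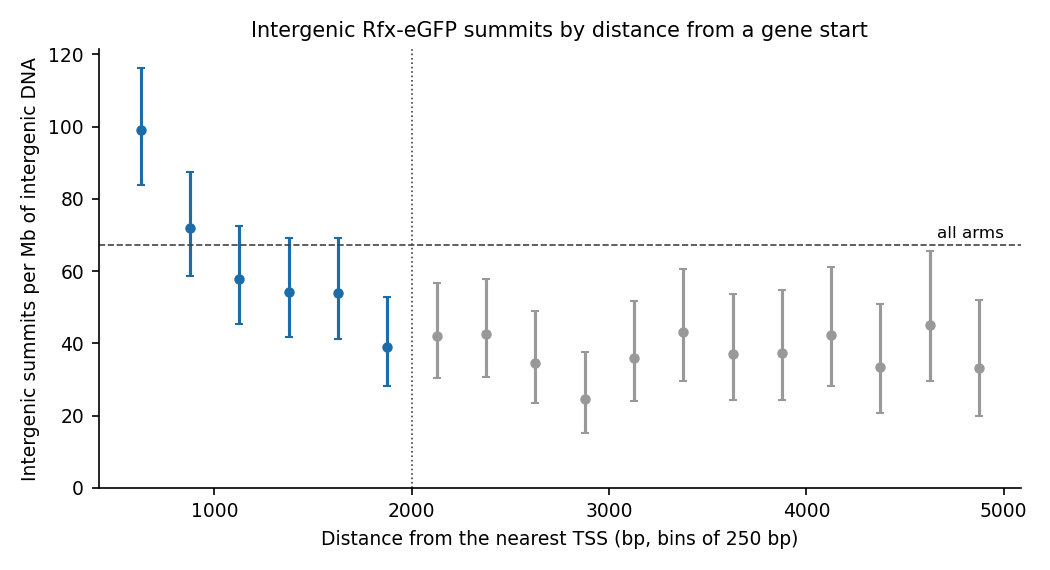
Summits per Mb of intergenic DNA (vertical axis) in bins of 250 bp from the nearest TSS (horizontal axis), with exact Poisson 95% intervals. Blue points are the near-gene intergenic bins, falling from 99.1 in the bin next to the promoters to 39.1 at 1751 to 2000 bp; grey points lie farther out, and the dashed line is the density over all arms, 67.2.

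The median peak lay 996 bp from its TSS (quartiles 694 and 1410), in an intergenic stretch with a median length of 3875 bp. The distance rule keeps out most short stretches, so this length is a description. The summit lay upstream of the gene in 377 cases (76.9%) and past its 3′ end, on the downstream side, in 113. Per Mb of DNA that met the rule, the upstream side held 69.3 summits (62.5 to 76.7) and the downstream side 52.9 (43.6 to 63.6). Stretches between divergent genes held 75.5 per Mb (172 summits, 64.7 to 87.7), tandem stretches 61.1 (250 summits, 53.8 to 69.2) and convergent stretches 57.2 (68 summits, 44.4 to 72.5), so that the intervals of all 3 orientations overlapped. By arm, the class took from 4.14% of the summits on X to 6.75% on 2L, with 1 peak on chromosome 4 and none on Y. A summit inside an annotated transposable element was seen in 7 of the 490 (1.43%, 0.694 to 2.92), compared with 18 of all 9247 summits (0.195%, 0.123 to 0.308). By class, it was seen in 3 of 617 distal intergenic, 6 of 4663 promoter and 0 of 1305 near intronic summits. The differences were not tested.

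Near-gene intergenic peaks were found in both replicates' own sets less often than promoter peaks, while their differences from distal intergenic and near intronic peaks did not pass the test. The conservative set, the smaller of the authors' thresholded lists from both replicates, held 353 of 490 (72.0%, 67.9 to 75.8), where 72.5% of all main-set peaks were held. Replicate 1's own set held 320 (65.3%) and that of replicate 2 held 300 (61.2%), against 65% and 67.9% of all peaks. Both sets held 219 (44.7%, 40.4 to 49.1), 101 were in replicate 1 only, 81 in replicate 2 only and 89 in neither, and 49.6% of all peaks were in both. Promoter peaks were in both sets in 56.5% of cases, a difference of -11.8 percentage points (-16.4 to -7.14; Fisher's exact test, adjusted p = 2.39e-06). By the same Fisher's exact test this call was lost when only peaks up to 1000 bp from the TSS were kept (-6.89 points, adjusted p = 0.0533) and when only main-set peaks above the median signal were kept (-2.58 points, adjusted p = 0.873). The differences from distal intergenic peaks (39.4%, adjusted p = 0.114) and near intronic peaks (48.5%, adjusted p = 0.152) did not pass Fisher's exact test. For the conservative set the difference from promoter peaks was -4.63 points (-8.93 to -0.640; Fisher's exact test, adjusted p = 0.0766), and it passed the threshold in the peaks of replicate 1 alone (-7.63 points, adjusted p = 0.000159) and not in those of replicate 2 alone (-5.58 points, adjusted p = 0.0562).

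The ranks of the peaks in the 2 replicates were related but scattered. Both ranked lists gave a signal for 435 of the 490, and Spearman's rho was 0.695 across them and 0.693 across 8217 main-set peaks, given as a description because the libraries share depth and base composition across all points. The median percentile of the class among main-set peaks was 47.3 in replicate 1 and 43.5 in replicate 2, a mean of 45.4 ± 2.75 (SD, n = 2). The median SD of a peak's percentile between the replicates was 8.41, against 8.33 over all peaks.

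**Figure D2:**
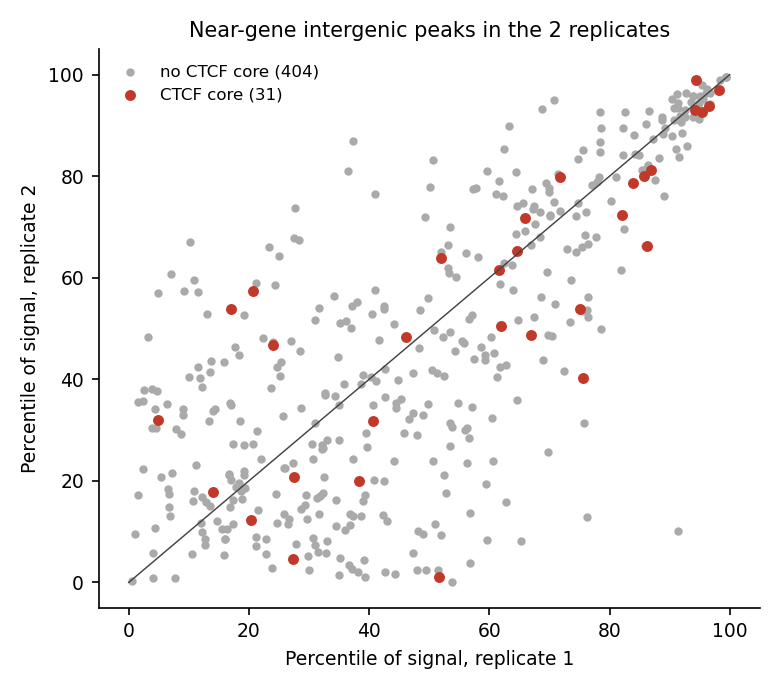
Percentile of each near-gene intergenic peak's signal among main-set peaks in replicate 1 (horizontal) and replicate 2 (vertical), for the 435 peaks that both ranked lists hold; the line marks equal rank. Red points hold the CTCF core within 100 bp of the summit and are spread from the lowest to the highest ranks.

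In signal, the class stood below promoter peaks. Its signals ran from 2.00 to 1897 with a median of 109 (quartiles 78.3 and 196), where the median was 101 for distal intergenic, 118 for near intronic and 141 for promoter peaks, and 120 over all. A signal above the main-set median was found in 214 of 490 (43.7%, 39.3 to 48.1), beside 50% of all peaks by construction. Among promoter peaks the share was 57.5%, a difference of -13.8 points (-18.3 to -9.13; Fisher's exact test, adjusted p = 1.84e-08). Near intronic peaks, which lie at the same distances from a TSS, had 49.1%, a difference of -5.45 points that did not pass Fisher's exact test (adjusted p = 0.0657) but did in either replicate's own set (-6.88 points, adjusted p = 0.0493, in replicate 2 and -7.85 points, adjusted p = 0.0228, in replicate 1). Distal intergenic peaks had 39.1% (Fisher's exact test, adjusted p = 0.125). Within the class, 173 of 377 upstream peaks (45.9%) and 41 of 113 downstream peaks (36.3%) were above that median, as were 163 of 351 peaks nearest to a protein-coding gene (46.4%) and 51 of 139 nearest to another gene (36.7%); the Wilson intervals overlapped in both pairs.

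**Figure D3:**
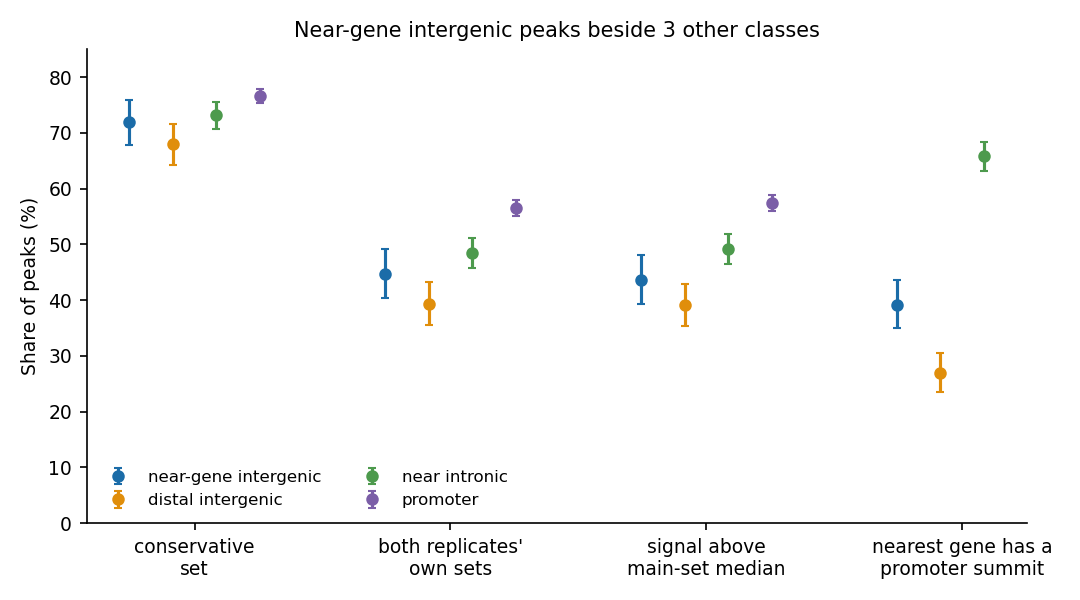
Share of peaks (%, with Wilson 95% intervals) that met each of 4 measures, for near-gene intergenic, distal intergenic, near intronic and promoter peaks. Near-gene intergenic peaks lie below promoter peaks in presence in both replicates' sets (44.7% against 56.5%) and in signal (43.7% against 57.5%), and between the other 2 classes in the nearest gene's promoter summit (39.2%).

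For 192 of the 490 peaks (39.2%, 35.0 to 43.6), the nearest gene also had an Rfx-eGFP summit within 500 bp of one of its own TSSs. The share was 53% over the 4584 peaks outside promoters. It was 26.9% for distal intergenic peaks, 12.3 points less than near a gene start (6.71 to 17.8; Fisher's exact test, adjusted p = 1.89e-05), and 65.8% for near intronic peaks, a difference of -26.6 points (-31.6 to -21.5; Fisher's exact test, adjusted p = 6.52e-24). The difference from distal intergenic peaks stayed past the threshold but moved to 7.21 points without replicate 1 (Fisher's exact test, adjusted p = 0.0443), to 5.75 with protein-coding genes only (adjusted p = 0.0469) and to 7.75 among peaks above the median signal (adjusted p = 0.0485). It was 39.3 points with a promoter window of 1000 bp, where the difference from near intronic peaks was -12.5; that window takes in the nearer peaks of the class themselves. Where both were present, the promoter peak was the stronger in 100 of the 192 cases. The intergenic peaks had a median signal of 125 where the gene had a promoter summit and 101 where it had none. The called interval itself, with a median width of 344 bp, reached within 500 bp of a TSS in 101 of 490 cases (20.6%) and overlapped a gene body in 42.

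The X-box, the palindrome that RFX factors bind, was rare at these summits. In the 100 bp to either side of the summit, 5 of 490 peaks held a strict X-box (1.02%, 0.437 to 2.37), as did 1 control window of the same width, centred 500 bp farther from the TSS (exact McNemar test, adjusted p = 0.525). Over all main-set summits the share was 0.757%. Control windows, here and below, were not required to lie between genes and could fall in a gene body or near another gene's start. The replicates' own sets differed in this count, with 1 of 342 (0.292%, the same as in its control windows) in replicate 1 and 6 of 346 (1.73%, with 0 control windows) in replicate 2. The single arm GGCAAC, searched on both strands, was in 63 summit windows and 60 control windows (exact McNemar test, adjusted p = 0.928), and in 13.2% of all summits. The 5 peaks with a strict X-box had signals from 72.9 to 175, below the upper quartile of the class. They lay near PKD (protein kinase D, signal 175), lncRNA:CR43685 (107), tRNA:Thr-AGT-1-3 (105), TSG101 (a subunit of the ESCRT-I sorting complex, 93.7) and an unnamed gene between mir-219 and ND-24L (72.9). Of the 5, the PKD peak was in both replicates' own sets, at the 70.9 and 54.8 percentile. The tRNA:Thr-AGT-1-3 peak was at the 10.9 percentile in replicate 1 and the 59.6 percentile in replicate 2. Their sequences are shown on the plus strand (RefSeq, dm6), with the X-box in capitals, as the class's matches to the factor's own site.
PKD, chr3R:18315521-18315554: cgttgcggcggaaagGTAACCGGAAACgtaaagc
lncRNA:CR43685, chr3R:7092165-7092207: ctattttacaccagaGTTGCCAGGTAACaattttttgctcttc
tRNA:Thr-AGT-1-3, chr3R:16423537-16423581: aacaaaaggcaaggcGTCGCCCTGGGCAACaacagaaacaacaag
TSG101, chr3L:16840655-16840698: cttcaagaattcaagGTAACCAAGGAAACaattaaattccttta
gene between mir-219 and ND-24L, chr3L:17316401-17316443: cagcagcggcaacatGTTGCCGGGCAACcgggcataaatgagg

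The CTCF core, AGNNGGCGC on either strand, which the insulator protein recognises, was the 1 motif of the 12 searched that was more frequent at the summits than in the control windows beyond the test's threshold. It was in 36 of 490 summit windows (7.35%, 5.35 to 10.004) and 5 control windows (1.02%, 0.437 to 2.37), a ratio of 7.2 (exact McNemar test, adjusted p = 9.41e-06). In the near-gene intergenic peaks of replicate 1's own set the shares were 7.60% and 1.17% (exact McNemar test, adjusted p = 0.000714), and in those of replicate 2 they were 7.23% and 1.16% (adjusted p = 0.00124). The mean summit share over the replicates was 7.41% ± 0.267 (SD, n = 2). Over all main-set summits the share was 3.74%. The core lay at a median of 24 bp from the summit, and within 50 bp of it in 30 of the 36 peaks. Counted in narrower windows, 50 bp on either side of their centre, the core was in 6.12% at the summit, 2.04% at 100 bp towards the TSS, and from 0.612% to 1.22% in the other windows out to 500 bp on either side.

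The sequences around 6 of the CTCF cores are shown because this was the motif placed at the summits; they are the strongest of the class on the arms given, read from the strand of the motif (RefSeq, dm6), with the core in capitals.
jp, chr2L:9567474-9567502, minus strand: gctactcgctAGGTGGCGCatgctacttc
Gr89a, chr3R:16497513-16497541, minus strand: gtcttttgctAGATGGCGCttttttagtt
Sid, chr3R:28672386-28672414, plus strand: aattctcaatAGTGGGCGCcaaaaagcat
CR31958, chr2L:3786389-3786417, plus strand: gcgcaacatcAGCTGGCGCtgtaacagtc
RabGGTa, chr3R:5126999-5127027, minus strand: tttggacgcaAGGTGGCGCtttatttgat
NLaz, chr2L:1362422-1362450, minus strand: agcgctcaacAGATGGCGCtggcagaagt

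Counting from 1 at the first base of the core, the free position 3 was A in 25 of the 36 cores and the free position 4 was T in 26 and G in 10. The base just before the core was T in 18 and C in 12 of the 36. Peaks with the core had signals from 57.0 to 981 with a median of 160, and 20 of 36 (55.6%, 39.6 to 70.5) were above the main-set median, beside 194 of 454 (42.7%, 38.3 to 47.3) without it. The strongest was the CG14762 peak at 981, followed by jp at 928 and Gr89a, a gustatory receptor gene, at 713. Sid had 618, CR31958 580, RabGGTa (the alpha subunit of the Rab geranylgeranyl transferase) 339 and NLaz, a lipocalin gene, 312. Of the 36, 21 were in both replicates' own sets and 29 were upstream of the nearest TSS. Of the peaks up to 1000 bp from the TSS, 23 of 248 held the core (9.27%, 6.26 to 13.5), and of those farther out 13 of 242 did (5.37%, 3.17 to 8.97), with overlapping intervals. The embryonic CTCF binding itself was not analysed here, so a core is a match of letters and not a bound site.

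**Figure D4:**
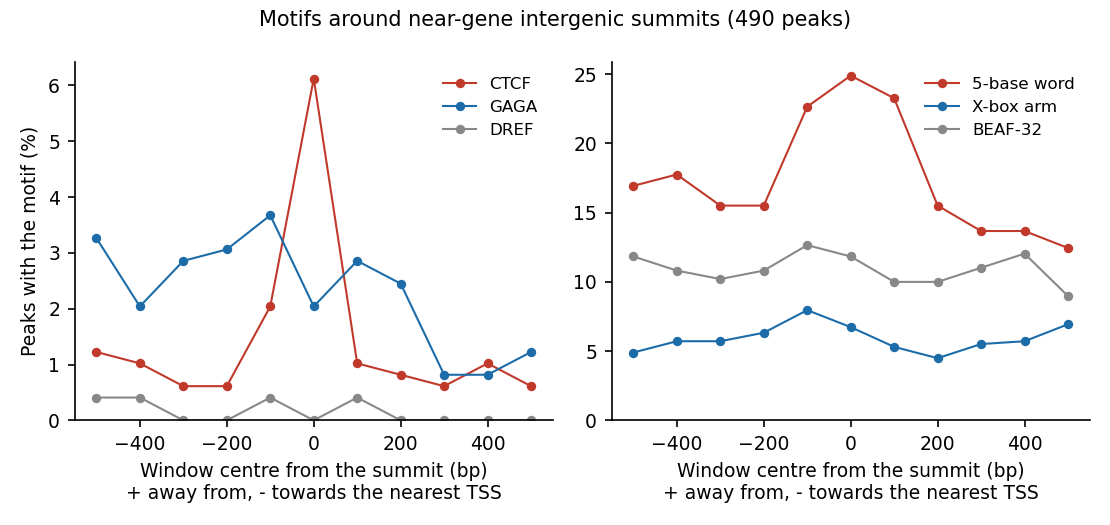
Share of the 490 near-gene intergenic peaks with a motif in windows of 50 bp on either side of their centre (vertical axis) by the window's distance from the summit (horizontal axis, positive away from the nearest TSS). The CTCF core stands at 6.12% at the summit, the 5-base word described in the text stands at 24.9%, and the X-box arm, BEAF-32, GAGA and DREF show no single peak at the summit.

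For the other motifs no difference between the summits and the control windows passed the test. The GAGA repeat (GAGAGAG), bound by the GAGA factor Trl, was in 23 summit windows and 11 control windows (exact McNemar test, adjusted p = 0.301), and it passed the threshold with windows of 150 bp on either side (adjusted p = 0.0106). Its direction was not the same in the replicates' own sets, with 2.92% at the summit and 3.51% in the control windows in replicate 1, and 6.36% and 3.18% in replicate 2. With control windows towards the TSS the difference was -1.22 points. The E-box CAGCTG, a site of bHLH factors, was in 41 and 29, the homeodomain core TAATTA in 63 and 76, the Grainyhead site AACNGGTT in 13 and 10, the Zelda site CAGGTAG in 7 and 9, the TATA box TATAAAA in 57 and 51, and the BEAF-32 site CGATA in 100 and 98. In the peaks of replicate 2 alone the homeodomain core passed the threshold, being lower at the summit (10.4%) than in the control windows (17.9%; exact McNemar test, adjusted p = 0.0292). DREF (TATCGATA, which contains CGATA) was in 2 and 0 windows, and Motif 1 (GGTCACAC), a core promoter element, in 4 and 0. Over all main-set summits the shares were 4.82% for the GAGA repeat, 11.0% for the E-box, 13.2% for the homeodomain core, 2.93% for Grainyhead, 1.04% for Zelda and 12.7% for the TATA box. Of the 490 summit windows, 210 (42.9%) held none of the 12 motifs.

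The sequences differed from those of promoter peaks in 5 of the 12 motifs. DREF, a site of housekeeping promoters, was in 0.408% of near-gene intergenic summits and 9.14% of promoter summits (Fisher's exact test, adjusted p = 5.25e-16), with 4.82% over all summits. Motif 1 was in 0.816% and 5.96% (Fisher's exact test, adjusted p = 1.02e-07; 3.26% over all). BEAF-32 was in 20.4% and 41.5% (Fisher's exact test, adjusted p = 6.44e-20; 31.0% over all), and the E-box was in 8.37% and 14.0% (adjusted p = 0.000696), a call lost with peaks up to 1000 bp only (adjusted p = 0.177) and with windows of 50 bp on either side (adjusted p = 0.0758). The CTCF core was the 1 of the 5 that was more frequent near-gene than at promoters, with 7.35% and 3.62% (Fisher's exact test, adjusted p = 0.000671). The median GC content of the summit windows was 37.8% in the class, 38.8% in its control windows and 39.3% at promoter summits.

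No motif of the 12 separated the class from distal intergenic peaks by Fisher's exact test after adjustment. At an unadjusted p under 0.05 there were 2, the Zelda site (1.43% against 0.162%, p = 0.0251) and the E-box (8.37% against 5.02%, p = 0.0273), each with an adjusted p of 0.164 by Fisher's exact test; the E-box passed with windows of 150 bp on either side (adjusted p = 0.0205). CTCF cores were in 5.35% of distal intergenic summits and 0.486% of their control windows, and in the class itself in 7.35% and 1.02% (Fisher's exact test between the summits, adjusted p = 0.417). In near intronic peaks the shares were 2.53% at the summit and 1.76% in the control windows, and at promoters 3.62% and 2.14%. DREF was in fewer than 2% of the summits in both intergenic classes.

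**Figure D5:**
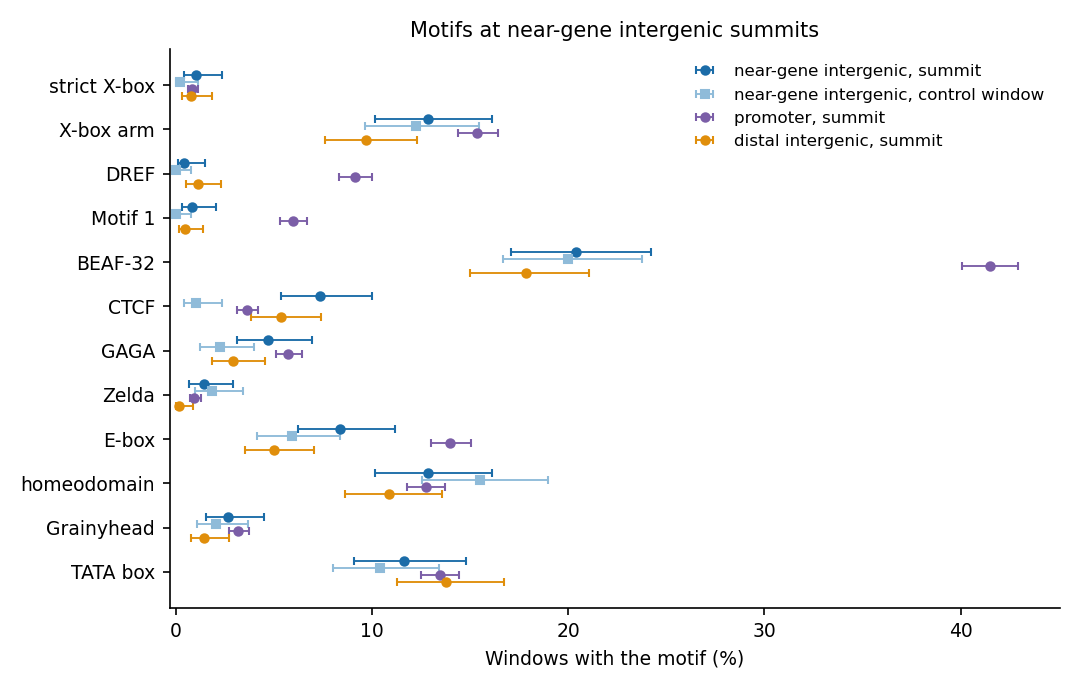
Share of windows of 100 bp on either side of the summit or control position (%, with Wilson 95% intervals) that hold each of 12 motifs, at near-gene intergenic summits, in their control windows, and at promoter and distal intergenic summits. CTCF is at 7.35% at the summits and 1.02% in the control windows; DREF, Motif 1 and BEAF-32 are at 9.14%, 5.96% and 41.5% at promoters and at 0.408%, 0.816% and 20.4% in the class.

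A screen of all 6-base words, chosen after seeing the data, compared the same windows. Of 2080 words, counted with their reverse complements, 12 (0.577%) differed by the exact McNemar test with adjustment over all words, 11 of them higher at the summit and 1 (AGGACT, 6 against 31 windows) lower; 155 had an unadjusted p under 0.05. Of the 12, 5 held the word CACTG. Among them, ACACTG was in 73 summit windows and 25 control windows (adjusted p = 0.00111 by the exact McNemar test), and CACTGA in 82 and 34 (adjusted p = 0.00190). The other 6 that were higher, such as CGCTAC (25 and 4) and GGCGCC (34 and 9), did not hold it. GGCGCC shares the bases GGCGC with the CTCF core. In distal intergenic peaks, 6 of the 12 passed the threshold the same way and 10 had the same direction. There GGCGCC was in 5.02% of summit and 2.43% of control windows and passed, and CGCTAC, with 4.21% and 3.24%, did not. Over all main-set summits the shares were 18.4% for ACACTG, 14.5% for CACTGA, 4.46% each for CGCTAC and GGCGCC, and 2.75% for AGGACT. The number called was 4 in the peaks of replicate 1's own set, 3 in those of replicate 2, 4 in the conservative set and 33 with control windows at 1000 bp. The words overlap one another and are not independent.

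CACTG itself, a word that no factor of the 12 motifs is named for, was in 223 of 490 summit windows (45.5%, 41.2 to 49.9) and 118 control windows (24.1%). It was not particular to the class: it was in 50.2% of distal intergenic, 47.7% of near intronic and 47.7% of promoter summits, with 28.0%, 29.7% and 32.4% in their control windows, and in 48.1% of all summits. In the narrower windows its share was 24.9% at the summit, 22.7% and 23.3% at 100 bp on either side, and from 12.4% to 17.8% farther out. The 7-base word CAGTGTA, whose reverse complement TACACTG holds CACTG, was in 37 summit windows (7.55%) and 7 control windows (1.43%; exact McNemar test, adjusted p = 0.0434 over all 7-base words), and in 5.67% of all main-set summits. Its sites in 6 strong peaks are shown because the word was found by the screen and has no name here, with the word in capitals, on the strand given (RefSeq, dm6).
CG17896, chrX:493929-493965, plus strand: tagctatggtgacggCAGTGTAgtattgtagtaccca
Cpr76Ba, chr3L:19516794-19516830, minus strand: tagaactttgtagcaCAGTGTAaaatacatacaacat
lncRNA:CR42794, chrX:5696575-5696611, plus strand: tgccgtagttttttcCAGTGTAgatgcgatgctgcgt
Gr89a, chr3R:16497585-16497621, minus strand: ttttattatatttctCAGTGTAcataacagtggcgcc
lncRNA:CR45355, chr2L:16535858-16535894, minus strand: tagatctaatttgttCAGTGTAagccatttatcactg
lncRNA:CR46240, chr3L:11319016-11319052, plus strand: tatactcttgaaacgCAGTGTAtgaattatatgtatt

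The 490 peaks had 442 different nearest genes, 2.42% of all 18277 genes, and 46 of these genes had more than 1 such peak. A protein-coding gene was nearest to 351 peaks and an ncRNA gene to 127, of which 118 were lncRNAs. The others were 7 tRNA, 3 snoRNA and 2 pseudogene cases. No microRNA gene was the nearest gene of a peak, out of 260, but only 29 of the 260 had DNA that met the rule. Among the 13968 protein-coding genes, 323 (2.31%) were nearest to a near-gene intergenic peak, which is the share to read the following counts against. Only 5489 of them had DNA that met the rule, with 69.4 peaks per Mb of it. The DNA at the right distance differs between lists, and a list with little of it could hold few peaks or none. Counts over lists are therefore a description. A promoter summit was found at 4949 of the protein-coding genes (35.4%) and at 5419 of all genes (29.6%), the shares to read the promoter counts of the lists against.

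Few genes of the cilium were next to these peaks, as few of all genes were. Of 34 genes for intraflagellar transport, the BBSome and the transition zone, 1 was the nearest gene, BBS4, a BBSome subunit (signal 217, 1326 bp upstream, percentiles 74.4 and 72.2 in the replicates), while 19 of the 34 had a promoter summit. Only 14 of the 34 had DNA that met the rule. Of 13 axonemal dynein and assembly genes none was, and 6 had a promoter summit, but only 4 of the 13 had DNA that met the rule. Among 8 mechanosensory channel and dendrite genes, of which 4 had such DNA, the nearest gene of a peak was nan, a TRPV channel gene of hearing neurons. Its peak had a signal of 292 at 553 bp upstream, and nan had no promoter summit. None of the 20 chemoreceptor genes on the list was the nearest gene, but the list is short. Chemoreceptor genes outside it, named after their values were seen, were nearest to peaks: Gr89a (713), Or10a (96.5 and 74.0), Gr98d (80.1), Or45b (73.2) and Gr93d (66.9). The chemoreceptor genes outside the list were not counted, so these names give no share to set beside that of all protein-coding genes. Rfx and its neighbour cwo had no peak of this class, and only 1 of the 2 had DNA that met the rule.

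Among patterning and tissue genes the lists gave from 0 to 2 cases each. None of 18 gap and pair-rule genes, 8 Hox genes, 19 proneural and sensory precursor genes, 15 neuronal or 18 muscle genes was nearest to a peak. In that order, 14, 8, 14, 8 and 14 of them had DNA that met the rule. Of 20 segment polarity and signalling genes, 2 were: pnt, an ETS factor of EGFR signalling (signal 235, percentiles 71.4 and 80.4), and en, a homeodomain factor (signal 83.6, percentiles 31.3 and 16.7). The Notch list gave 1 of 19, E(spl)malpha-BFM, a Bearded-family gene and Notch target, with a signal of 419 at 1783 bp upstream. The glial list gave 1 of 11 (Gs2, glutamine synthetase, 97.8), the hemocyte list 1 of 12 (Hml, hemolectin, 200.3, which held a CTCF core) and the epidermal and tracheal list 2 of 11. The Hml peak was at the 74.3 percentile in replicate 1 and had no signal in replicate 2's ranked list. It was absent from the conservative set. The shares of the segment polarity list (10%, 2.79 to 30.1) and the epidermal and tracheal list (18.2%, 5.14 to 47.7) were above the 2.31% of all protein-coding genes, on 2 genes each and with no test. Those on the epidermal and tracheal list were shd, a hydroxylase of the ecdysone pathway (119), and Ddc, dopa decarboxylase of cuticle hardening (103).

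Of the remaining lists, those of Cpr cuticle protein and tRNA genes gave 3 and 7 cases, and the others 0 or 1 each. Of 92 cytosolic ribosomal protein genes 75 had a promoter summit and 1, RpS23, had a near-gene intergenic peak, a weak one of 76.3 inside a transposable element. None of 73 mitochondrial ribosomal protein genes was nearest to a peak, while 48 had a promoter summit. Only 17 of the 73 had DNA that met the rule (0.00402 Mb). None of the 20 replication and cell cycle genes on the list was nearest to a peak, while 15 had a promoter summit. Only 6 of the 20 had such DNA (0.00171 Mb). Outside that list, and named after its values were seen, the cell cycle kinase gene Cdk4 had a peak of 332 at 624 bp upstream, in both replicates' sets. Of 13 heat shock genes 1 was (Hsc70-3, the ER chaperone BiP, signal 42.4). None of 12 genes for insulator and promoter-element binding proteins was, and none of 32 small nuclear RNA genes, where 4 and 8 genes had DNA that met the rule. The cuticle protein genes of the Cpr family, with 1 promoter summit in 70 genes, had 3 near-gene intergenic peaks, at Cpr76Ba (967), Cpr67Fb (88.7) and Cpr78Cb (77.0). DNA that met the rule was found for 58 of the 70 and held 51.3 peaks per Mb, below the 69.4 of all protein-coding genes. That density rests on 3 peaks. Among lists with 1 or 2 cases it ran from 46.1 (cytosolic ribosomal protein genes) to 276 (mechanosensory channel and dendrite genes). Of 295 tRNA genes 7 were nearest to a peak, with signals from 82.3 to 188 and the highest at tRNA:Ile-TAT-1-2, followed by tRNA:Ile-AAT-1-9 (153) and tRNA:Lys-TTT-2-1 (125).

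The peaks lay in 426 intergenic stretches, of which 53 held more than 1. The stretch chr2L:16535229-16542545 between the divergent genes lncRNA:CR45355 and CG31816 held 4, with signals from 65.6 to 490. The stretch chr2L:1647164-1651257 between lncRNA:CR45695 and chinmo held 3, from 105 to 714, and chr2L:7433517-7437491 between CG5958 and CG5973 held 3, from 205 to 622. Of the 490 intervals, 17 overlapped the one before, so neighbours are not always separate sites.

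The limits of the class cut through similar peaks. Just inside the inner limit were the peaks of CG17896 at 503 bp (signal 1852), CG10479 at 505 bp (329) and CG13297 at 506 bp (79.5). Just outside were those of CG13227 at 500 bp (129), CG7458 at 499 bp (104) and CG43066 at 498 bp (138). Just inside 2000 bp were CG4218 at 1993 bp (116), Cipc at 1978 bp (111) and the odorant receptor gene Or45b at 1970 bp (73.2). Just outside were lmd, a muscle zinc-finger factor, at 2007 bp (342), CG14095 at 2017 bp (73.0) and the actin gene Act87E at 2031 bp (131).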

How the data were processed

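The series holds 1 group of 2 biological replicates. The authors called peaks on dm6, per the labels, and ranked them by irreproducible discovery rate, per the names of the deposited files, with an aligner and caller not given in the sources used here, and the control library was not analysed here. The deposited signal is the caller's enrichment value on an unstated scale, compared within a list only, and the deposited score is a whole number from 830 to 1000 in the main set. The depth is unknown. A further 16 columns hold values of compared inputs and were not used.

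The main set was the larger thresholded set called from both replicates; 3 peaks off the 7 arms were left out. Genes were those of Ensembl release 115 (BDGP 6.54), and the sequence was the RefSeq copy of dm6. Sets were compared by an overlap of at least 1 bp. A peak's replicate signal is the highest in that replicate's ranked list whose interval holds its summit. The conservative set is named as in the deposited files. Motifs were matched without mismatch on both strands within 100 bp of the summit. The control window was centred 500 bp away on the side away from the TSS. Whether it lay in a gene body or near another TSS was not checked. Fisher's exact tests between classes and exact McNemar tests between paired windows were two-sided, with Benjamini-Hochberg adjustment over the 3 classes (2 for promoter summits), the 12 motifs or all words, and a threshold of 0.05. The tests of the 12 motifs were tried on simulated random DNA with planted motifs and equal shares of all bases, unlike these windows. The tests of the other shares and of the words were not simulated. P-values over peaks measure the spread among peaks of these libraries and not among embryos.

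The class, the lists, the motifs and the tests were chosen with earlier results of these data known. Named genes were those of the 12 strongest peaks, of peaks with a strict X-box, up to 3 per list by signal, the 3 peaks nearest each distance limit and the 3 stretches with most peaks; genes shown for the CTCF core and the words were chosen after their values were seen. Alternatives were other peak sets, each replicate alone, other distance limits, gene sets, windows, control windows and overlaps. The software was scipy 1.17.1, pandas 2.3.3, numpy 2.4.6 and, for plots, matplotlib 3.10.9, under Python 3.11.15.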

Additional observations from a re-analysis of the deposited data

How the results depend on the processing

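Of 465 alternative values none changed direction where the main value was called. No paired analysis was possible because the series holds 1 group, so that no groups of samples share replicate numbers; the McNemar tests pair windows of 1 peak, not samples. The share of summits in the class was 2.68% with peaks up to 1000 bp only, 4.95% with protein-coding genes only and 4.63% among peaks above the median signal. With protein-coding genes only, differences passed the threshold that the main values missed: conservative set against promoter peaks (-5.85 points, adjusted p = 0.0188 by Fisher's exact test), both replicates' sets against distal intergenic peaks (7.80 points, 0.00945) and signal against distal intergenic peaks (7.91 points, 0.00942). With transposable elements counted as genes, the conservative set against promoter peaks (-5.44 points, 0.0237) and signal against near intronic peaks (-5.98 points, 0.0354) also passed. In the conservative set the latter was -7.90 points (0.0154), and without 1 replicate it was -7.85 to -6.88 points. Up to 1000 bp the presence in both sets differed from distal intergenic peaks by 10.2 points (Fisher's exact test, adjusted p = 0.0187) and from promoter peaks by -6.89 (adjusted p = 0.0533). When both classes were cut to peaks above the median signal, at all distances of the rule, the difference from promoter peaks was -2.58 points (Fisher's exact test, adjusted p = 0.873). Without 1 replicate, the conservative-set difference ran from -5.30 to 7.11 points against distal intergenic peaks (0.0275 for the higher, without replicate 2) and from -7.63 to -5.58 against promoter peaks (0.000159 for the lower). The motifs past the threshold numbered 2 in place of 1 with windows of 150 bp, and 1 to 2 without 1 replicate; those that differed from distal intergenic peaks numbered 1 in place of 0 with windows of 150 bp. The CTCF core passed in every alternative run. Words called numbered 12, against 4 in the conservative set, 33 with control windows at 1000 bp, 1 with words of 7 bases, 0 with words of 8 bases by the exact McNemar test, and 3 to 4 without 1 replicate. The causes were not tested. Unknown depth and 2 replicates limit all values.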
